A study of Homo sapiens with 38 samples.

Results

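The mitochondrial ribosomal protein genes are the nuclear genes for the proteins of the ribosome inside mitochondria. They were taken as the protein-coding gene records of the RefSeq annotation of GRCh38.p14 whose symbols start with MRPL or MRPS followed by a number. This gave 77 genes, 49 MRPL and 28 MRPS, of 20033 protein-coding genes on chromosomes 1 to 22, X and Y. RefSeq lists a systematic ribosomal protein name for 75 of the 77, of which 51 name a protein of the large and 24 a protein of the small subunit. The symbol and the systematic name differ in subunit for 2 genes, MRPS18A (mL66) and MRPS30 (mL65), which encode large-subunit proteins.

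The study profiled histone marks and transcription factors by chromatin immunoprecipitation sequencing (ChIP-seq) in Jurkat cells, an established T-cell leukaemia line, in 38 samples that form 19 groups of 2. The 3 groups used here, 6 samples, were stimulated Jurkat cells with a control lentivirus (Ctrl_LV), immunoprecipitated for BHLHE40, for GATA3 or for histone H3 acetylated at lysine 27 (H3K27ac). The cells had received 50 ng/ml of the phorbol ester PMA with 500 ng/ml of ionomycin. The labels of the samples put this at 5 hours, but the protocol text at 2 hours. What the control lentivirus carries is not stated in the labels, and the other 16 groups were not analysed here.

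Each group is represented by the authors' 1 list of enriched regions for its 2 samples, with 26205 lines for BHLHE40, 29009 for GATA3 and 113570 for H3K27ac. A line has a start, an end, a summit and a signal value, which is the authors' own measure of enrichment and was compared only within 1 list. Since no list holds a value per sample, no spread between replicates could be computed and no test was run. All comparisons are counts and medians for the 77 genes beside the same over all protein-coding genes. The lists carried lines at the 8 of 8 T-cell marker genes examined (such as CD3E, LCK and BCL11B) for each of the 3 targets. Of 12 marker genes of other cell types, 3 had a BHLHE40, 2 a GATA3 and 5 an H3K27ac line.

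The mitochondrial ribosome translates the few proteins encoded by mitochondrial DNA, which are core subunits of the respiratory chain and of ATP synthase. Its ribosomal RNAs come from mitochondrial DNA, while its proteins are encoded in the nucleus, made in the cytosol and imported. Some of these proteins have bacterial counterparts and others are found in mitochondria only. BHLHE40 is a basic helix-loop-helix repressor that binds E-boxes and is induced on T-cell activation. GATA3 is a zinc-finger factor of T-cell development, and H3K27ac marks active promoters and enhancers.

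Nearly all mitochondrial ribosomal protein genes carried a BHLHE40 and an H3K27ac line, and a smaller majority carried a GATA3 line. In the gene record plus 2 kb on each side, 73 of 77 genes (94.8%) had at least 1 BHLHE40 line, against 58.7% of all protein-coding genes. An H3K27ac line was present at 76 of 77 genes (98.7%), against 74.9%. A GATA3 line was present at 44 of 77 genes (57.1%), against 44.4%. The difference from all genes was thus 36.1 percentage points for BHLHE40, 23.8 for H3K27ac and 12.8 for GATA3.

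Taken gene by gene, 2 patterns covered 73 of the 77. Lines of all 3 lists were found at 43 genes (55.8%), against 38.4% of all protein-coding genes. BHLHE40 and H3K27ac without GATA3 were found at 30 genes (39.0%), against 19.1%. The same 43 genes were also those with a BHLHE40 and a GATA3 line in the window, a combination that 38.9% of all genes had. None of the 77 had a factor line without an H3K27ac line in its window, which was also rare over all genes (2.56%). H3K27ac alone was found at MRPS18A and MRPL41 (all genes, 13.2%), GATA3 with H3K27ac at MRPL22 (all genes, 4.24%), and no line of any list at MRPL23 (all genes, 22.5%).

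**Figure D1:**
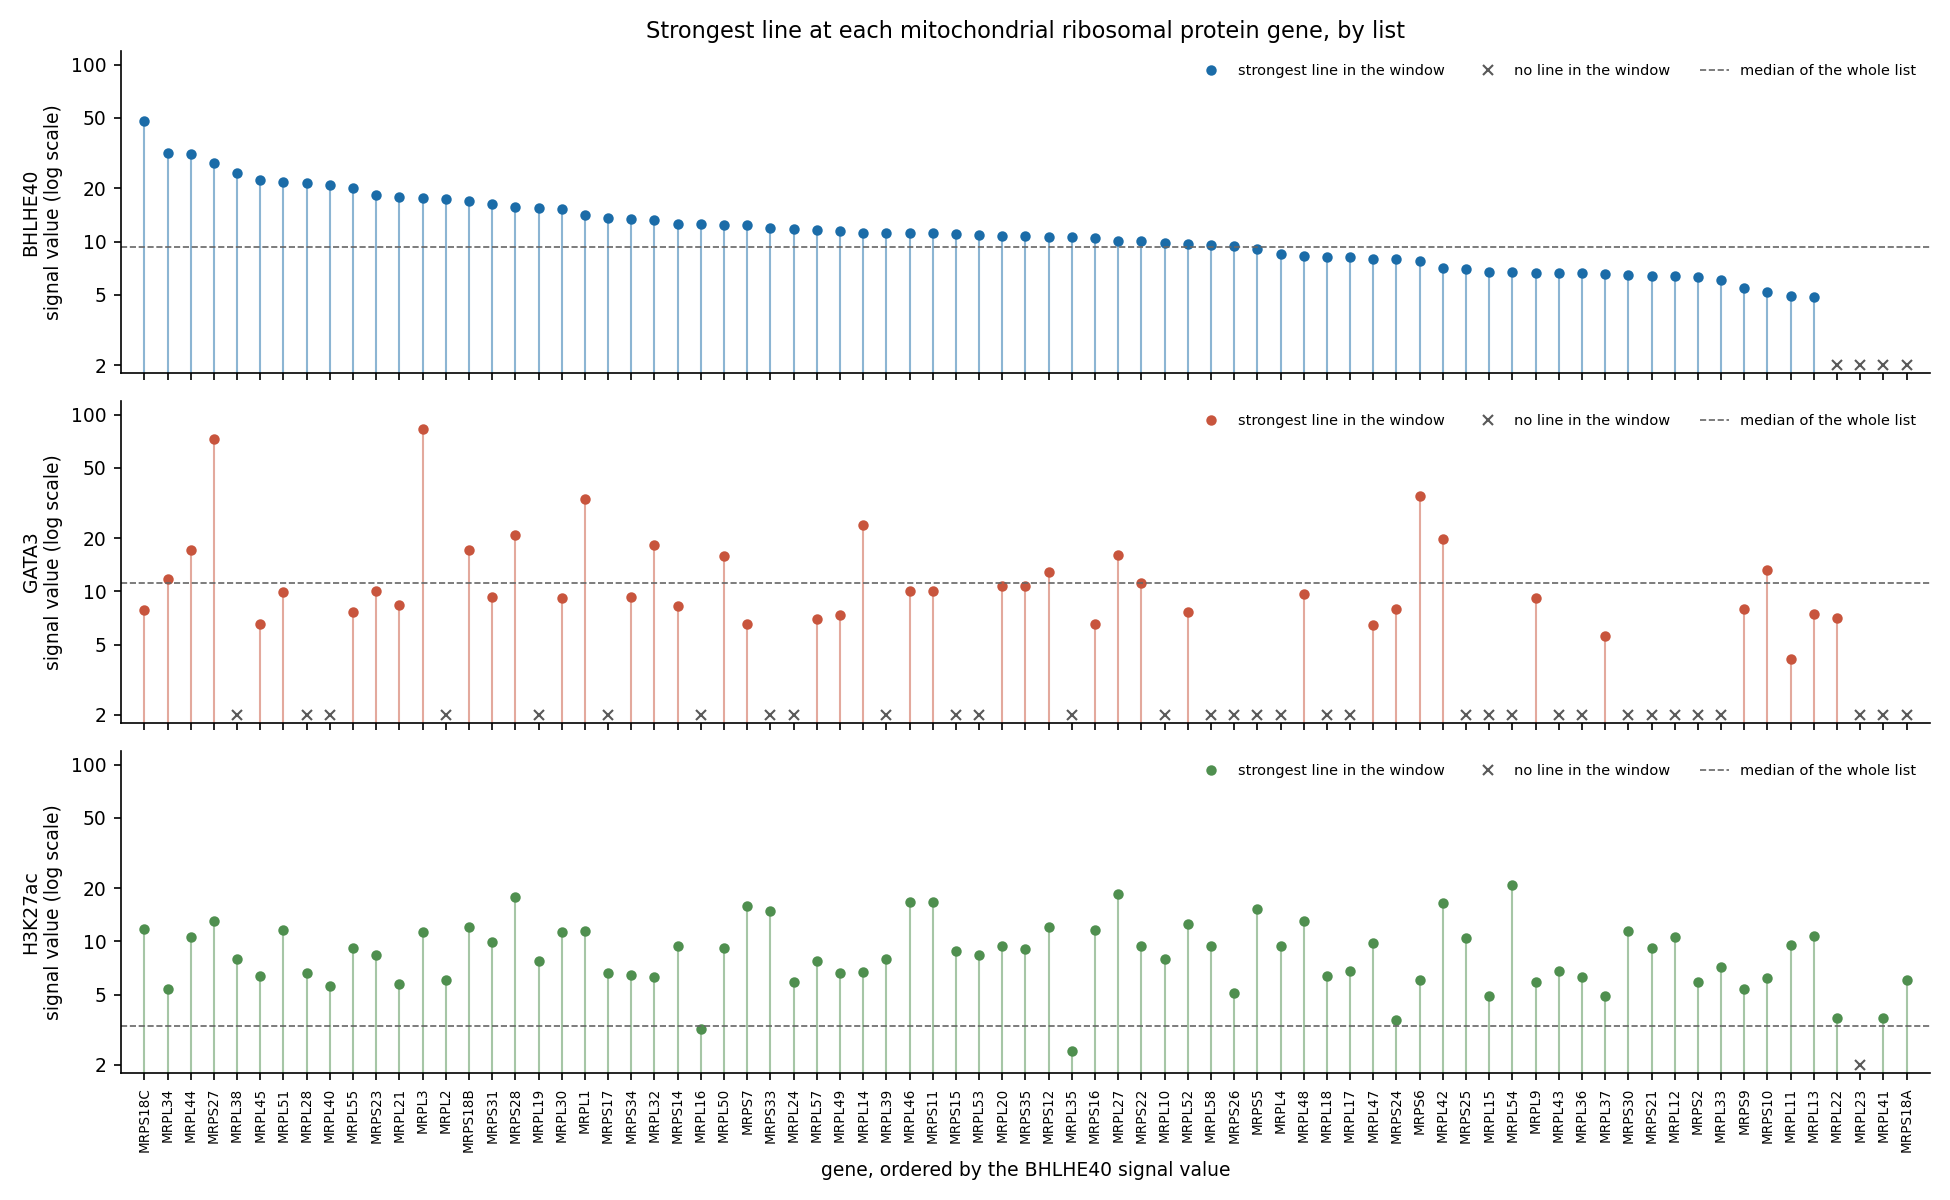
Signal value of the strongest line (y axis, log scale, authors' units) in the window of each of the 77 mitochondrial ribosomal protein genes (x axis, ordered by the BHLHE40 value), for the BHLHE40, GATA3 and H3K27ac lists. Crosses stand for genes with no line, dashed lines for the median of the whole list. BHLHE40 values run from 4.88 to 47.9 with 4 genes without a line, and 33 genes have no GATA3 line.

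Most genes with a factor line had a single one. A single BHLHE40 line was found at 57 genes (74.0%, all genes 33.8%), 2 lines at 12 and 3 or more at 4. For GATA3 there was 1 line at 35 genes (45.5%, all genes 23.6%), 2 at 6 and 3 or more at 3. For H3K27ac there was 1 line at 22 genes (28.6%, all genes 15.5%) and 2 at 25 (32.5%, all genes 14.4%). At 29 there were 3 or more (37.7%, all genes 45.0%). In total the windows held 96 BHLHE40, 60 GATA3 and 209 H3K27ac lines. In each list 1 of these was counted for 2 genes, MRPL46 and MRPS11, which start 320 bp apart on opposite strands.

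The strength of the lines differed between the lists. The strongest BHLHE40 line per gene had a median signal value of 10.9, against 12.1 over all protein-coding genes with a BHLHE40 line. For GATA3 the median was 9.77, against 14.0. For H3K27ac it was 8.60, against 6.36. The strongest GATA3 line per gene was therefore mostly weak within its list. Of 44 such lines, 15 lay above the list median of 11.2, against 61.8% of all genes with a GATA3 line. Among the strongest 10% lay 3 of 44, against 16.9%. This takes no account of window length, with a median of 12618 bp here and 28130 bp over all genes. Line by line, the GATA3 median within 1 kb of a start was 9.32 here and 8.89 in the whole list. Farther away it was 15.7 and 11.6. Distance was taken to the gene's own start for these genes. For the whole list it was taken to the nearest start of any protein-coding gene, so the distances are not fully alike. By contrast, 66 of 76 strongest H3K27ac lines lay among the strongest 10% of the H3K27ac list, against 60.5% of all genes with a line. For BHLHE40, 6 of 73 lay among the strongest 10%, against 15.8%. Across the genes the signal values of the lists followed each other little. Spearman's rho was 0.237 between BHLHE40 and GATA3 over 43 genes, 0.081 between BHLHE40 and H3K27ac over 73 genes and 0.232 between GATA3 and H3K27ac over 44 genes. These coefficients describe genes that share the same libraries and are no replicates.

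Mitochondrial ribosomal protein genes are short, and a short window has less room for a line. Their records run from 677 bp (MRPL41) to 111543 bp (MRPS28) with a median of 8618 bp, while the median over all protein-coding genes is 24130 bp. In the shortest of 5 equally filled length classes over all genes, from 4051 to 10431 bp, lay 31 of the 77 genes. Of these 31, 96.8% had a BHLHE40, 51.6% a GATA3 and 100% an H3K27ac line. The values over all genes in the same length class were 37.4%, 20.0% and 46.6%. In the next class 24 of 24 genes had a BHLHE40 line (all genes, 52.2%) and 11 of 24 a GATA3 line (all genes, 29.2%). In the fourth class the order was the same, with 9 of 10 for BHLHE40 (all genes, 68.7%) and 8 of 10 for GATA3 (all genes, 57.0%). With 9 and 3 genes, the third and the longest class give only coarse shares.

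**Figure D2:**
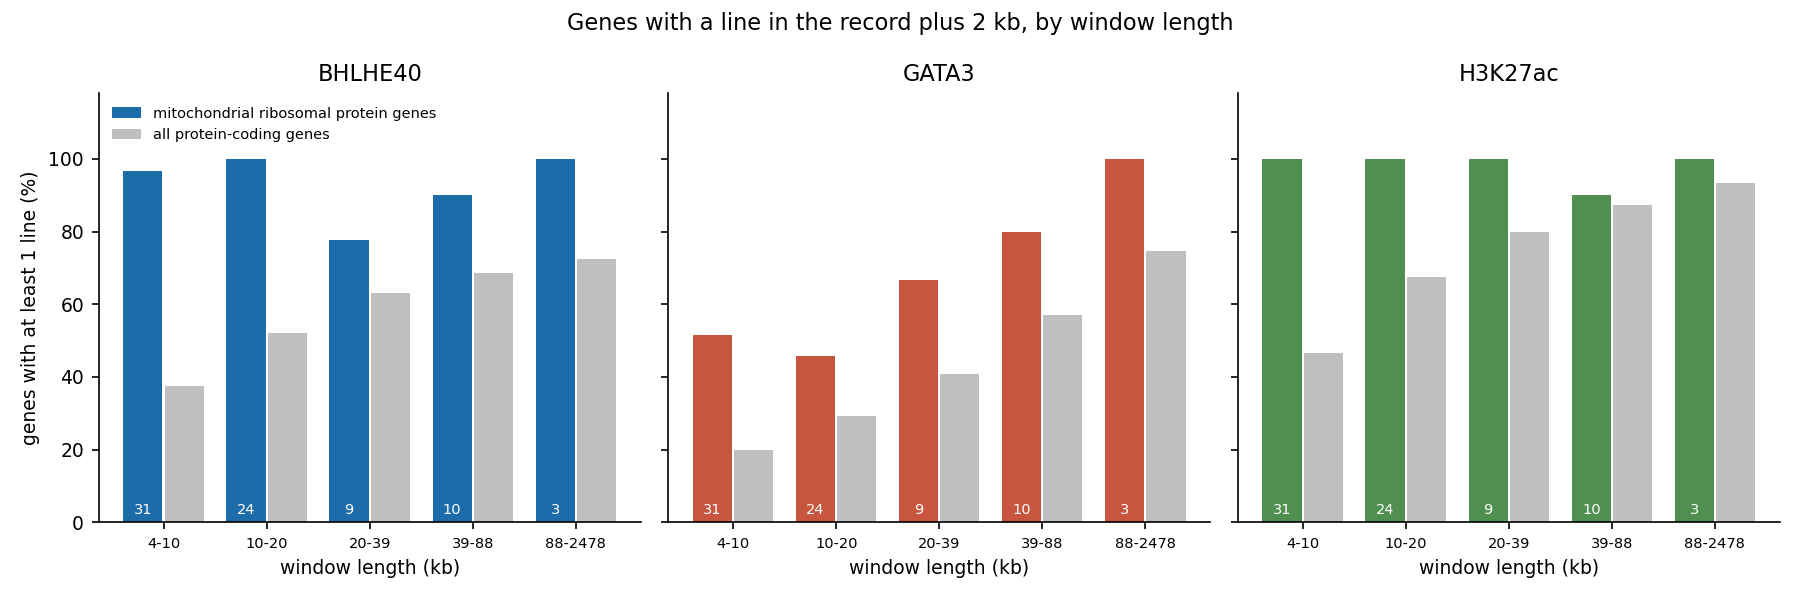
Share of genes with at least 1 line in the record plus 2 kb (y axis, percent) by window length (x axis, kb, 5 equally filled classes over all protein-coding genes), for the 3 lists. Coloured bars are the mitochondrial ribosomal protein genes, with their number at the foot, and grey bars all protein-coding genes. In the shortest class the share is 96.8% against 37.4% for BHLHE40 and 51.6% against 20.0% for GATA3.

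Lines were then counted around the gene starts. Start sites were available for 69 of the 77 genes and for 15842 of all protein-coding genes. Within 1 kb of a listed start, 65 of 69 genes (94.2%) had a BHLHE40 line, against 49.6% of all genes. All 69 had an H3K27ac line there, against 57.6%, and 36 of 69 (52.2%) a GATA3 line, against 23.7%. The remaining 8 genes, MRPL2, MRPL10, MRPL13, MRPL15, MRPL21, MRPL23, MRPL35 and MRPS28, are not in the start table.

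The summit of the strongest line gives a finer position. For BHLHE40 it lay within 250 bp of a start at 54 of 66 genes (81.8%), against 50.2% of all genes, with a median distance of 85.5 bp against 248.5 bp. For GATA3 it lay within 250 bp at 28 of 41 genes (68.3%), against 20.2%, with a median distance of 102 bp against 7208.5 bp. The strongest GATA3 line of a mitochondrial ribosomal protein gene was thus most often at its promoter, whereas over all genes it was most often kilobases away. Window length limits how far a summit can lie from the start. The median window was 12618 bp for these genes and 28130 bp over all genes. The part of window length in these distances was not tested. The H3K27ac summit lay within 250 bp at 45 of 69 genes (65.2%), against 38.8%. BHLHE40 summits fell before the start at 48 of 66 genes, while GATA3 summits fell before it at 15 and after it at 26. H3K27ac summits fell before the start at 25 and after it at 44 genes. The side of the start was not counted over all protein-coding genes, so whether these splits are particular to these genes is not known.

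**Figure D3:**
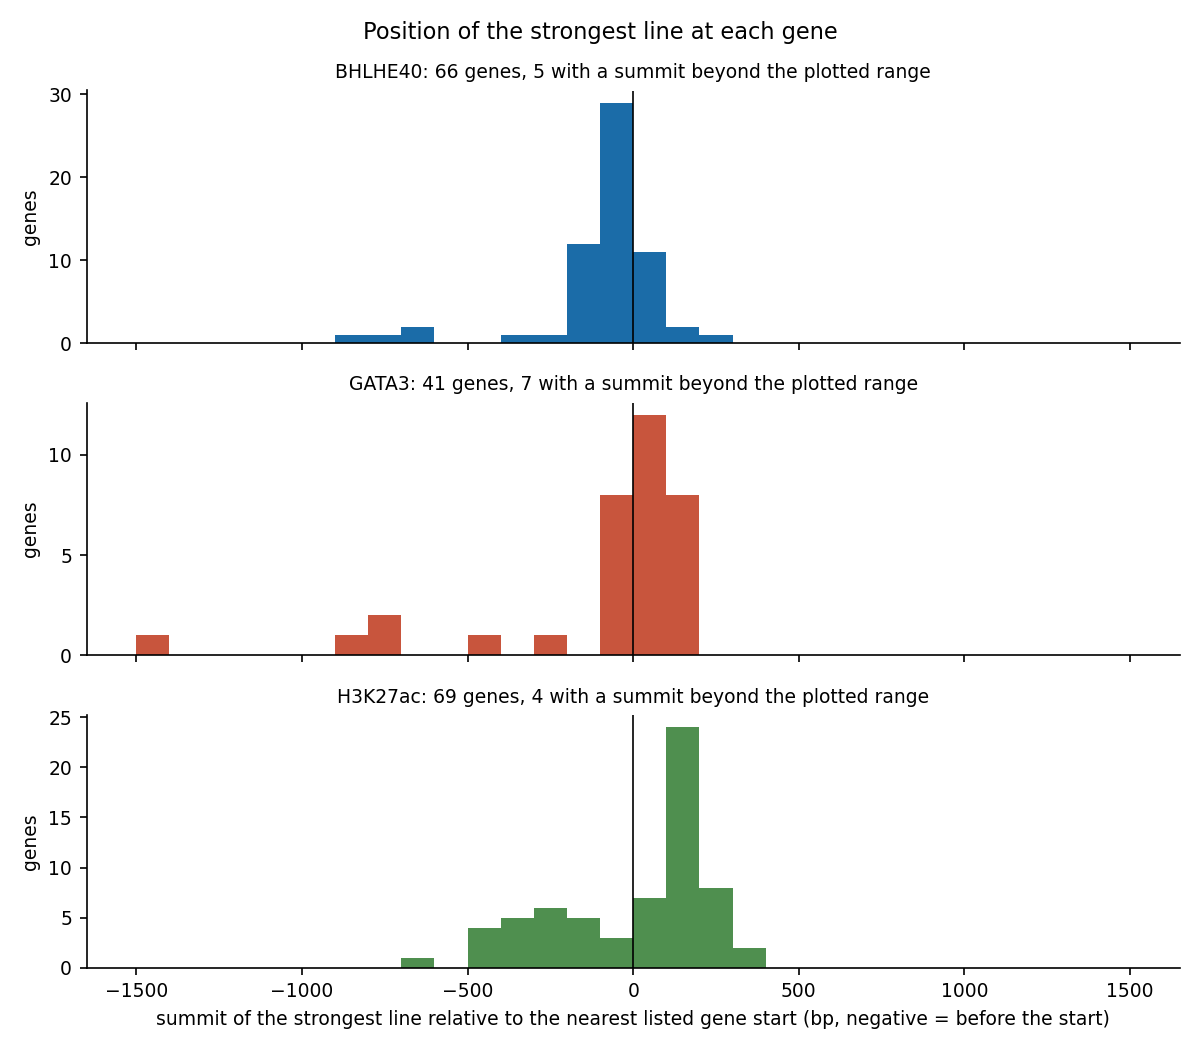
Number of mitochondrial ribosomal protein genes (y axis) by the distance of the summit of the strongest line from the nearest listed start of the gene (x axis, bp, negative before the start, 100 bp bins), for BHLHE40, GATA3 and H3K27ac. BHLHE40 summits pile up just before the start (48 before, 18 after), and GATA3 and H3K27ac summits lie more often after it (26 of 41 and 44 of 69). The side of the start was not counted over all protein-coding genes.

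Since most BHLHE40 lines covered the promoter, its sequence was examined. RefSeq promoter sequences, 250 bases before to 50 after the start, were matched for 69 of the 77 genes. A BHLHE40 line overlapped this stretch at 64 of 69 genes (92.8%, all genes 44.9%) and a GATA3 line at 35 (50.7%, all genes 19.0%). The median GC content was 60.3%, against 62.7% over all promoters. The number of CG pairs relative to that expected from the C and G content was higher, with a median of 0.879 against 0.761. The promoter sequences were searched on both strands for exact letters tied to known factors. CACGTG is the E-box bound by BHLHE40 and other basic helix-loop-helix proteins. AGATAA is a form of the site of GATA factors. CCGGAAG is a form of the site of ETS factors, GCATGCG of that of the factor NRF1, and AAGATGGCG of that of the factor YY1. The other letters were CCAAT for the factor NF-Y, GGGCGG for the element called the GC box and TATAAA for the element called the TATA box. No 2 of these matches were required to be apart, so they may overlap. GABP, which is an ETS factor, and NRF1 and YY1 are known regulators of nuclear genes for mitochondrial proteins.

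The E-box was about as frequent as elsewhere. CACGTG was present in 7 of 69 promoters (10.1%), against 8.82% of all promoters and 11.9% of all promoters with a BHLHE40 line. AGATAA was present in 2 promoters (2.90%), those of MRPL11 and MRPS35, against 7.66%. The ETS letters were found in 29 promoters (42.0%), against 14.2% of all promoters and 24.4% of those with a BHLHE40 line. The YY1 letters were found in 13 promoters (18.8%), against 2.69% and 5.13%. A YY1 match wholly in the 250 bases before the start was found in 3 promoters (4.35%, all promoters 0.757%), so most matches reached into the transcribed side. NRF1 letters were found in 7 promoters (10.1%, all promoters 5.16%). CCAAT was found in 20 (29.0%, all promoters 36.4%), GGGCGG in 41 (59.4%, all promoters 58.3%) and TATAAA in 2 (2.90%, all promoters 9.75%). A match is a description of the letters only.

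**Figure D4:**
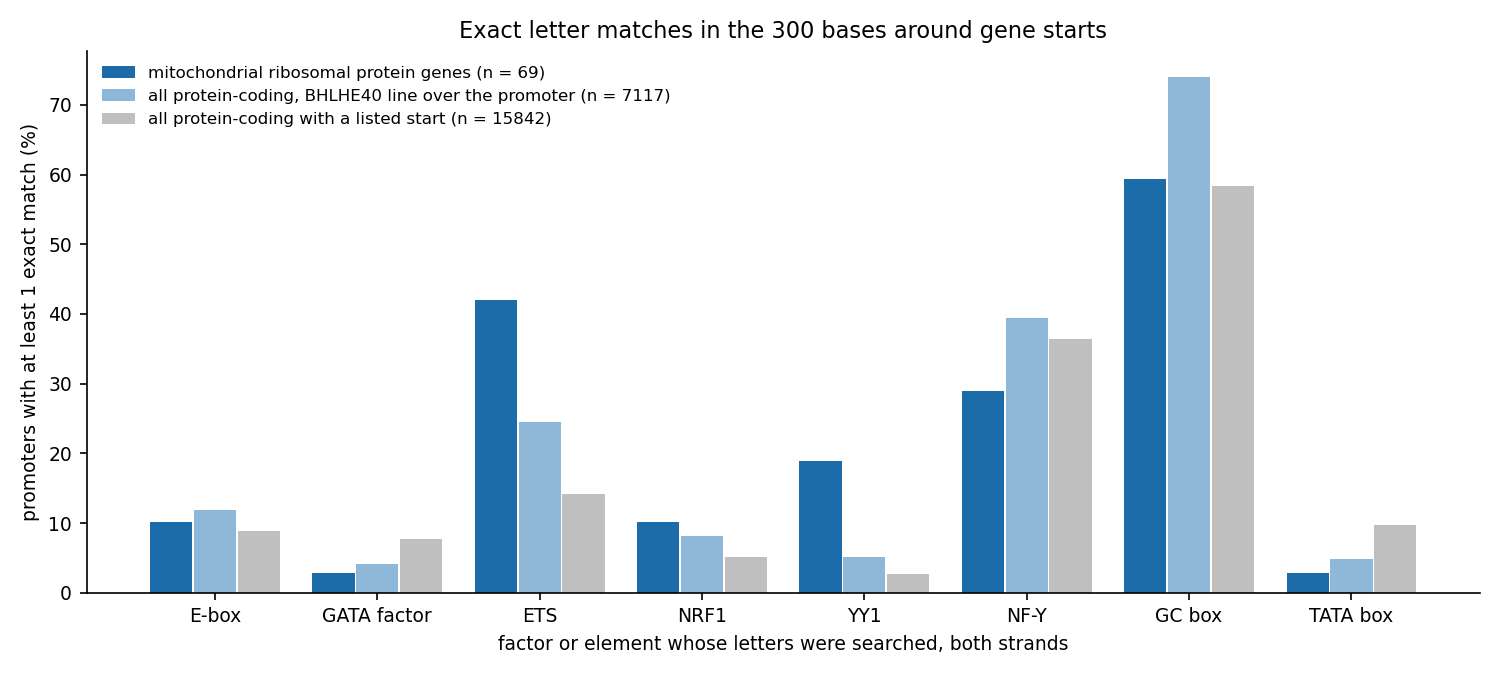
Share of promoters with at least 1 exact match (y axis, percent) for the letters of 8 factors or elements (x axis), in the 300 bases around the start. Dark bars are the 69 mitochondrial ribosomal protein promoters, light bars all protein-coding promoters with a BHLHE40 line over them and grey bars all protein-coding promoters. The ETS (42.0% against 14.2%) and YY1 letters (18.8% against 2.69%) stand higher in the dark bars, and the E-box (10.1% against 8.82%) does not.

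In 3 of the 7 promoters with an E-box the BHLHE40 summit lay within 20 bp of it, and these are shown with the E-box in capitals, beside the promoter of MRPL22, which has an E-box and no BHLHE40 line. Each is the 250 bases before the start from RefSeq, GRCh38.p14, read 5′ to 3′ on the strand of the gene. MRPS18C is at chr4:83455808-83456057, plus strand, MRPL45 at chr17:38296918-38297167, plus strand, MRPL37 at chr1:54199917-54200166, plus strand, and MRPL22 at chr5:154940823-154941072, plus strand.
MRPS18C: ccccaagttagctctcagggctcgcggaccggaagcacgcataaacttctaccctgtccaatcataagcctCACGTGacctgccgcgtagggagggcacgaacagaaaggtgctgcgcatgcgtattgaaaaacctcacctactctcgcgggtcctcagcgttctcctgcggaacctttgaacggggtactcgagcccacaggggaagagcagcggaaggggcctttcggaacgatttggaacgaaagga
MRPL45: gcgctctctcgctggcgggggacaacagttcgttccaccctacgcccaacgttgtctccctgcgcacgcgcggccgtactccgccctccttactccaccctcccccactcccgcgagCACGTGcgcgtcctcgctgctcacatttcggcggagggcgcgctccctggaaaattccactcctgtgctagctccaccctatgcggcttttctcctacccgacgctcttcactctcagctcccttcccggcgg
MRPL37: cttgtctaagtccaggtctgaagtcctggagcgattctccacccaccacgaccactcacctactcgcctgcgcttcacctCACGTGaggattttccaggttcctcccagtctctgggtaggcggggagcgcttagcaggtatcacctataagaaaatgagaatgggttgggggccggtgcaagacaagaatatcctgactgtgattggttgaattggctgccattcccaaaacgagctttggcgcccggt
MRPL22: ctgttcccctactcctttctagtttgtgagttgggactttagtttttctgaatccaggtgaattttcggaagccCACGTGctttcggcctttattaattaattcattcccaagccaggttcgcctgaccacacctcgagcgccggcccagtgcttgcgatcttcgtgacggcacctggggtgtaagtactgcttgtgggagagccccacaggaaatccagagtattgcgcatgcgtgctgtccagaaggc
The centre of the E-box lay 7.5 bp from the BHLHE40 summit at MRPL45, 8.5 bp at MRPL37 and 19.5 bp at MRPS18C. The signal values at these 3 genes were 22.2, 6.55 and 47.9, so the weakest and the strongest differ although all have the same 6 letters near the summit. At MRPL22 the E-box starts 176 bp before the gene start, and the nearest BHLHE40 line is 2554 bp from the record.

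The letters that were more frequent than in other promoters are shown in 2 further sequences, with the matches in capitals: those of YY1 in MRPL52, a large-subunit protein gene at chr14:22829637-22829886, plus strand, and those of ETS factors in MRPS34, a small-subunit protein gene at chr16:1773135-1773384, minus strand.
MRPL52: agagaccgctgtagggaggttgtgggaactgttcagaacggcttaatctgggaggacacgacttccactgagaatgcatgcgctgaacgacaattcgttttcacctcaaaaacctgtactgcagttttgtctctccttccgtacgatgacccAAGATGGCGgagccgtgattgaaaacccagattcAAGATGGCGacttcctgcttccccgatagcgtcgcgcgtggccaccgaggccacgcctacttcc
MRPS34: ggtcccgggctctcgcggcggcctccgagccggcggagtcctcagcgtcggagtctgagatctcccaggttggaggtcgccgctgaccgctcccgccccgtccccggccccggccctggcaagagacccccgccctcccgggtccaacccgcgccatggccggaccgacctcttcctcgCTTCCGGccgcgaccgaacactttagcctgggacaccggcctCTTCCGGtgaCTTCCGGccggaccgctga
MRPL52 holds 2 copies of AAGATGGCG, starting 98 and 64 bp before the start. The centre of the second copy lay 0 bp from the BHLHE40 summit and 1 bp from the GATA3 summit, so both factor lines peaked on these letters. Their signal values were 9.73 and 7.62. MRPL52 was the closest case of the promoters with YY1 letters. At the others with a BHLHE40 line over them, the distance to its summit ran from 39 bp (MRPS24) to 659 bp (MRPS18B). For GATA3 it ran from 32 bp (MRPS10) to 740 bp (MRPS18B). MRPS34 holds 3 ETS matches, starting 71, 29 and 19 bp before the start. The GATA3 summit lay 45 bp from the nearest of them and the BHLHE40 summit 211 bp.

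Genes of the large subunit were examined first. MRPL34 had the highest BHLHE40 signal value of the MRPL genes, 31.6, rank 1195 of 26205, with its summit 95 bp before a start. MRPL44, which has a ribonuclease III-like fold, followed at 31.1 (rank 1243), peaking 85 bp before the start. The GATA3 line of MRPL44 (17.1) peaked 31 bp from the BHLHE40 summit. MRPL38 had a BHLHE40 value of 24.6 with the summit 174 bp before the start, and no GATA3 line within 54143 bp of its record. These 3 strong BHLHE40 lines thus lay near a listed start, with and without GATA3. At MRPL34 no BHLHE40 line lay over the promoter at the start nearest the 5′ end of the record. ABHD8 starts 560 bp from a start of MRPL34 on the opposite strand.

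MRPL3, a protein near the peptidyl transferase centre, carried the strongest GATA3 line of all 77 genes, 82.5, rank 454 of 29009 (chr3:131486386-131487340). This line lay inside the record, 16194 bp after the start, and a BHLHE40 line of 15.3 had its summit 12 bp from that of GATA3. The H3K27ac line there was weak, 3.66. At the start of MRPL3 the picture was the reverse, with BHLHE40 at 17.6, H3K27ac at 11.3 and no GATA3 line. MRPL3 had 3 BHLHE40, 4 GATA3 and 4 H3K27ac lines in all. MRPL1, the protein of the L1 stalk, had a GATA3 line of 33.5 and a BHLHE40 line of 14.2 with summits 11 bp apart, 709 and 698 bp before the start. A further GATA3 line of 24.3 lay 81713 bp after the start of MRPL1, without a BHLHE40 line.

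At MRPL14 (intersubunit face) the GATA3 line of 23.7 reached the window only with its edge, and the strongest H3K27ac line was 6.74. Its summit lay 2153 bp before the nearest listed start, inside the record of TMEM63B, which starts 240 bp from a start of MRPL14. MRPL27, a protein that reaches the peptidyl transferase centre, had its 3 lines at the start. They had 10.1 for BHLHE40, 16.1 for GATA3 and 18.5 for H3K27ac (rank 223 of 113570). EME1 starts 45 bp from MRPL27 on the opposite strand. MRPL54 had the highest H3K27ac value of the 77 genes, 20.9 (rank 133), while its BHLHE40 lines were weak at 6.69 and 6.54 and the nearest GATA3 line was 189021 bp from its record. The strong H3K27ac lines of MRPL27 and MRPL54 were thus found with and without a GATA3 line.

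MRPL12 and MRPL10 form the stalk that recruits translation factors. MRPL12 had a BHLHE40 value of 6.34 with the summit 29 bp after the start and an H3K27ac value of 10.6, without GATA3. MRPL10 had 3 BHLHE40 lines, the strongest at 9.75, and no GATA3 line. MRPL45, which anchors the ribosome to the inner membrane, had 22.2 for BHLHE40 at its E-box and a weak GATA3 line of 6.54. MRPL58, a peptidyl-tRNA hydrolase that frees stalled ribosomes, had BHLHE40 at 9.59 and H3K27ac at 9.40 without GATA3. MRPS30, a large-subunit protein despite its symbol, had BHLHE40 at 6.48 and H3K27ac at 11.5, also without GATA3. At these 5 genes GATA3 was thus absent from the window or weak.

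In the small subunit, MRPS18C carried the strongest BHLHE40 line of the 77 genes, 47.9, rank 427 of 26205 (chr4:83455224-83456521), with its summit 157 bp before the start. The GATA3 line at MRPS18C was weak, 7.85, rank 22382 of 29009. Its start lies 175 bp from that of HELQ on the opposite strand, so the lines cannot be given to 1 of the 2 genes. MRPS27, a pentatricopeptide repeat protein, had the most lines, 5 of BHLHE40, 6 of GATA3 and 14 of H3K27ac, over a record of 100838 bp. Its strongest GATA3 line (72.8, rank 632) and BHLHE40 line (27.8, rank 1581) had summits 25 bp apart, and lay 85873 and 85848 bp after the start. At its start MRPS27 had weaker lines, 8.53 for BHLHE40 and 11.4 for GATA3.

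MRPS6 had 4 BHLHE40 and 2 GATA3 lines, and its GATA3 line of 34.8 lay 13520 bp after the start beside a BHLHE40 line of 7.59. Another gene, SLC5A3, shares the start and lies in the record of MRPS6. MRPS31 had 3 GATA3 lines with values between 6.99 and 9.34, the strongest 55 bp before the start. MRPS18B had its BHLHE40 (16.9) and GATA3 (17.1) summits 81 bp apart, 632 and 713 bp before the start, in lines 3983 and 3228 bp wide. PPP1R10 starts 597 bp from MRPS18B on the opposite strand. The stronger GATA3 lines of MRPS27 and MRPS6 were thus far inside the records, and those of MRPS31 and MRPS18B near the starts.

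Of the genes named for their known roles, MRPS12 of the decoding centre had BHLHE40 at 10.6, GATA3 at 12.8 and an H3K27ac line of rank 1318 of 113570, with summits 282 to 360 bp before its start. SARS2 starts 181 bp away on the opposite strand. MRPS22 had 10.0 for BHLHE40, 11.2 for GATA3 and 9.46 for H3K27ac. MRPS16 had a BHLHE40 line of 6.91 at its start, and its stronger BHLHE40 (10.5) and only GATA3 line (6.54) lay over 5 kb away, past the other end of the record. MRPL46 and MRPS11 shared 1 line of each list, with values of 11.1 for BHLHE40, 10.0 for GATA3 and 16.8 for H3K27ac. MRPS28 had strongest values of 15.7 for BHLHE40, 20.9 for GATA3 and 17.9 for H3K27ac, at different places in a window of 115543 bp. A BHLHE40 line of 15.1 and a GATA3 line of 17.4 overlapped each other and the H3K27ac line of 17.9. The record of TPD52 also reaches into this window. The H3K27ac value of MRPS28 was the third highest of the 77 genes.

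GATA3 lines at these genes were stronger away from the starts. Among 55 different GATA3 lines at genes with a listed start, 35 lay within 1 kb of the start of the gene and had a median signal value of 9.32, with a highest value of 33.5. The 20 farther lines had a median of 15.7 and a highest value of 82.5. BHLHE40 showed the opposite order, with a median of 10.7 for 67 lines within 1 kb and 7.35 for 18 farther ones. The whole lists had the same orders, with distance taken to the nearest listed start of any protein-coding gene. There the GATA3 medians were 8.89 near and 11.6 far, and the BHLHE40 medians 10.2 and 9.02. The order is thus one the mitochondrial ribosomal protein genes share with other genes.

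**Figure D5:**
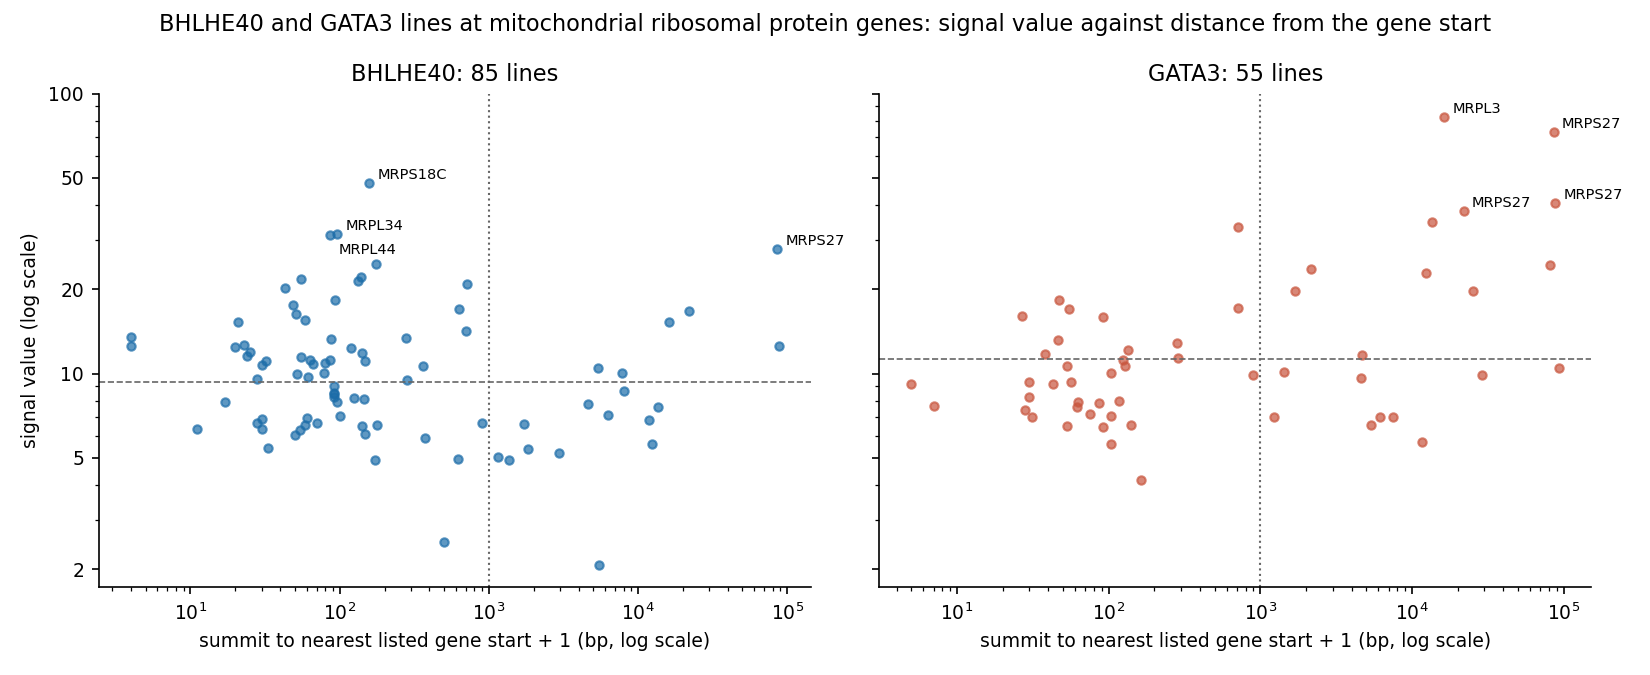
Signal value (y axis, log scale, authors' units) of each different BHLHE40 and GATA3 line at the mitochondrial ribosomal protein genes against the distance of its summit from the nearest listed start of the gene (x axis, bp plus 1, log scale). The dotted line marks 1 kb, the dashed line the median of the whole list. The strongest GATA3 lines, at MRPL3 and MRPS27, lie beyond 10 kb, and most BHLHE40 lines above 20 lie within 1 kb.

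The lines of the 2 factors overlapped at most genes that had both. At 39 of the 43 genes with both factors a BHLHE40 and a GATA3 line overlapped, in 46 pairs. The median distance between the summits of a pair was 65 bp (1 to 837 bp), with 19 pairs within 50 bp, and 44 of the 46 pairs overlapped an H3K27ac line. Such pairs were not counted over all protein-coding genes, so whether they are particular to these genes is not known. The 44 genes with a GATA3 line had a median strongest BHLHE40 value of 11.4 and a median strongest H3K27ac value of 9.53. The 33 genes without GATA3 had medians of 9.52 and 7.01. The ranges overlapped, from 4.88 to 47.9 against 6.05 to 24.6 for BHLHE40, and the windows of the first set were longer, with a median of 16812 bp against 12015 bp. The part of window length in this was not tested.

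Neighbouring genes were common. Another protein-coding record lay in the window of 53 of 77 genes (68.8%), against 44.2% of all genes. A start on the opposite strand within 1 kb was found for 23 of 69 genes (33.3%), against 13.2%. GATA3 lines were found at 19 of these 23 genes (82.6%), against 61.3% of all genes with such a start. At the 46 genes without such a start, 22 had a GATA3 line (47.8%), against 44.2%. For BHLHE40 the counts were 23 of 23 (all genes, 87.7%) and 43 of 46 (93.5%, all genes 57.3%). These shares take no account of window length, and the 77 genes have shorter windows than all genes. Among windows with no other protein-coding record, GATA3 lines were found at 14 of 24 genes (58.3%), against 41.9% of all such genes. Lines between 2 starts cannot be assigned to either gene.

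The 4 genes without a BHLHE40 line were MRPL22, MRPL23, MRPL41 and MRPS18A. MRPL23, a protein of the exit tunnel, had no line of any list in its window of 71613 bp (record chr11:1947332-2014944). The nearest lines were 24171 bp away for H3K27ac, 57577 bp for BHLHE40 and 62232 bp for GATA3. MRPL22, also of the exit tunnel, had a GATA3 line of 7.05 with its summit 102 bp after the start and weak H3K27ac of 3.71. MRPL41 has the shortest record and had an H3K27ac value of 3.70. MRPS18A had H3K27ac at 6.08, and its nearest BHLHE40 line was 35105 bp away. H3K27ac was thus below the median of these genes, 8.60, at the 3 that had a line.

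The counts were also taken by symbol, MRPL or MRPS, and by origin of the protein. The large-subunit genes MRPS18A and MRPS30, both without a GATA3 line, were counted under their MRPS symbols. The MRPS windows were longer, with a median of 15699 bp against 12105 bp for MRPL. BHLHE40 lines were found at 46 of 49 MRPL and 27 of 28 MRPS genes. GATA3 lines were found at 26 of 49 MRPL (53.1%) and 18 of 28 MRPS genes (64.3%), and H3K27ac lines at 48 of 49 and 28 of 28. Among 45 genes listed as having a bacterial counterpart, 43 had a BHLHE40, 25 a GATA3 and 44 an H3K27ac line. Among the other 32 the counts were 30, 19 and 32. MRPL47, which RefSeq also names uL29m, was counted among the 32. MRPS18A and MRPS18B were counted there too, while MRPS18C was among the 45. The list was fixed beforehand, and being among the 32 does not show that a protein has no bacterial relative.

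Other genes of mitochondrial protein synthesis were counted in the same way, though many have longer windows. The median window was 29047 bp for the translation factors and 37874 bp for the aminoacyl-tRNA synthetases, against 12618 bp for the 77 genes. All 5 mitochondrial ribosomal proteins with other symbols (DAP3, PTCD3, AURKAIP1, CHCHD1, GADD45GIP1) had BHLHE40 and H3K27ac lines and 4 a GATA3 line. Of 24 assembly factors, 23 had a BHLHE40, 15 a GATA3 and 24 an H3K27ac line. Of 15 translation factors, 13 had BHLHE40, 13 GATA3 and 15 H3K27ac, including TUFM, the elongation factor Tu of mitochondria, with a BHLHE40 value of 23.1. Of 17 mitochondrial aminoacyl-tRNA synthetases, 14 had BHLHE40, 13 GATA3 and 17 H3K27ac. Of 9 genes for mitochondrial DNA transcription and upkeep, 8 had BHLHE40, 6 GATA3 and 9 H3K27ac, including TFAM, which packages mitochondrial DNA, with 12.9 for BHLHE40 and 10.4 for GATA3. BHLHE40 shares thus ran from 82.4% (synthetases) to 100% (other symbols), beside 94.8% of the 77 genes and 58.7% of all protein-coding genes. GATA3 shares ran from 62.5% (assembly factors) to 86.7% (translation factors), beside 57.1% and 44.4%. Within 1 kb of a listed start the order differed, with GATA3 at 52.2% of the 77 genes that have a start and 23.7% of all genes. There the assembly factors had 33.3% and the synthetases 35.7%. The other symbols had 60%, the genes for mitochondrial DNA 75% and the translation factors 92.9%.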

How the data were processed

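ChIP-seq of BHLHE40, GATA3 and H3K27ac in stimulated Jurkat cells with a control lentivirus was analysed from 1 deposited narrowPeak list per group of 2 samples, grouped by the sample titles. Per the submitters' processing notes, bcl2fastq 2.20 and MACS2 were used with build hg38. The aligner, filters and use of input are not given in the sources used here. The factor lists are named for an irreproducible discovery rate (IDR, how well ranks repeat between samples) of 0.05, and the H3K27ac list as pooled. An IDR list holds only repeatable regions, a pooled list also weak ones. The deposited signal value per line is the authors' enrichment, on a reference scale that neither the labels nor the lists describe. The deposited score of the factor lists runs from 540 to 1000, where 830 stands for an IDR of 0.01. The authors' deposited −log10 q was used only to filter H3K27ac lines. Depth is unknown, and intervals that depend on it are left out. The labels do not say whether the 2 samples came from separate cultures.

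A line counted for a gene when it overlapped the RefSeq record (GRCh38.p14) plus 2 kb by at least 1 bp. Coordinates are 1-based. Distances were taken from a summit to the nearest listed start of the gene, and for letter counts 1 promoter per gene was used, at the start nearest the 5′ end of the record. Named genes were the 5 highest signal values and the 3 most lines per list, the 5 strongest overlapping pairs, genes lacking BHLHE40 or H3K27ac or with GATA3 alone of the factors, the longest and shortest record, and 11 genes of known role. MRPL11, MRPL37, MRPL47, MRPL52, MRPS34, MRPS35, TUFM and TFAM were added after their values were seen. The genes and lists were chosen with earlier results of these data known. Scripts ran under Python 3.11.15 (pandas 2.3.3, numpy 2.4.6, matplotlib 3.10.9, scipy 1.17.1). Counting was tested on simulated data, with 0 of 9610 genes wrong. Alternatives changed the window, the threshold and the genes compared.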

Additional observations from a re-analysis of the deposited data

How the results depend on the processing

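Values here are the share of the 77 genes with a line minus that of all protein-coding genes, in percentage points. They were 36.1 for BHLHE40, 12.8 for GATA3, 23.8 for H3K27ac and 17.0 for BHLHE40 with GATA3, and stayed above 0 in all 36 alternatives. In 27 of these they stayed within the 95% binomial interval of the main difference. Such an interval treats the genes as independent draws and holds no spread between replicates. It serves as a yardstick for the size of a change and is no test. With 1 kb around a listed start in place of the record, they were 44.6 for BHLHE40, 28.5 for GATA3 and 42.4 for H3K27ac. The H3K27ac value was 26.5 without the 2 kb flank, 16.6 with a flank of 10 kb, 35.6 for lines with −log10 q of at least 5, and 26.7 among genes with window lengths in the range of the 77. Among windows with no other protein-coding record (24 of the 77), BHLHE40 came to 41.8 and H3K27ac to 28.1. In 3 alternatives the interval of their own difference reached below 0: GATA3 with the whole line in the window, and GATA3 and BHLHE40 with GATA3 among windows with no other record. Of 168 alternatives for the lines per named gene, 124 left the count as it was and 141 within 1.5 times. MRPL14 and MRPS16 had no GATA3 line without the flank, and MRPL22 gained a BHLHE40 line with 5 kb. No paired analysis was possible because every list gives 1 value for its 2 samples, and for the same reason no replicate could be left out. Depth is unknown, so a missing line is not evidence of no binding.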
